A study of Mus musculus with 6 samples.

Results

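The genes described here are 35 genes of cholesterol and fatty acid synthesis in C2C12 cells, a mouse myoblast line that fuses into myotubes when serum is reduced. They were chosen by name and role, with earlier results of these data known. All 35 are among the 11835 genes with a transcript in the deposited values. They comprise 7 enzymes of the mevalonate steps, 11 enzymes that make squalene and turn it into cholesterol, 5 genes that control the pathway, 4 genes of sterol transport and 8 genes of fatty acid synthesis. In the sequencing, 3 cultures transfected with NC siRNA (siNC) were compared with 3 cultures transfected with CNN3 siRNA (siCNN3), which is directed against calponin 3, an actin-binding protein. Both groups were C2C12 cells of the same line, grown in 10% fetal bovine serum and differentiated in 2% horse serum, and both are labelled as mouse myotube. The line is 1 established cell line, nothing in the labels ties the replicate numbers to separate days, and which CNN3 siRNA the sequenced cultures received is not given in the sources used here. The methods give a schedule with a repeated transfection for differentiation experiments and call the sequenced cells differentiating myoblasts, without stating the harvest time of these cultures apart from that schedule. P-values therefore set the difference between groups against the spread between these cultures. The limma fit estimates that spread partly from all genes tested.

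Cells make cholesterol from acetyl-CoA through mevalonate, isoprenoid units and squalene, and they make fatty acids from the same acetyl-CoA through malonyl-CoA. Transcription of most of these enzymes is driven by the sterol regulatory element-binding proteins (SREBPs), which are carried from the endoplasmic reticulum to the Golgi by SCAP when membrane sterol is low and are held back by the INSIG proteins when it is high. The 2 pathways supply membranes and lipid-modified proteins in growing and fusing muscle cells, and the sterol branch is also known to be turned down during the response to interferon.

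The target gene Cnn3 had levels of 62.8, 61.4 and 62.8 FPKM in siNC replicates 1, 2 and 3 and of 19.04, 39.2 and 25.6 FPKM in the siCNN3 replicates (FPKM, fragments per length of transcript and number of mapped fragments). The siCNN3 mean was 44.8% of the siNC mean, a difference of -1.19 on the log2 scale (adjusted p = 0.0669 by limma), so the knockdown itself was not called at an adjusted p below 0.05. The number of reads is not given, so the depth is unknown. The groups also differed in marker genes. The summed FPKM of 10 interferon response genes was 20.9, 377 and 99.7 in siNC and 3403, 3206 and 1634 in siCNN3 replicates 1, 2 and 3. The summed FPKM of 8 myotube markers was between 169.7 and 203 in siNC and between 99.6 and 119.8 in siCNN3, and Ckm, the muscle creatine kinase, was under 1 FPKM in every library although the labels call the cells myotubes. The 4 erythroid markers with a transcript, all globins, summed to between 224 and 653 FPKM in siNC and to between 49.9 and 72.7 FPKM in siCNN3. Of the adipocyte markers, Fabp4 and Pparg have transcripts among those listed, with sums of 10.9 to 13.9 FPKM in siNC and 5.04 to 6.62 FPKM in siCNN3, and Adipoq, Plin1, Cidec and Lep have none. Fabp4 was called lower (log2 fold change -1.45), while Pparg was at 0.21 and was not called. Of the macrophage markers, Cd68 and Lyz2 summed to 4.72 to 10.2 FPKM in siNC and 2.81 to 4.04 FPKM in siCNN3, and Ptprc, Adgre1 and Csf1r have no transcript listed. Their part in the results below was not tested, and in bulk RNA fewer cells of a type and less RNA per cell cannot be told apart.

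Most of the 35 genes were lower in siCNN3 than in siNC by a small margin, and none of these lower genes was called. Npc2, which carries cholesterol inside the lysosome, rose to 171% of its siNC mean, and of the 35 genes it alone was called (limma with Benjamini-Hochberg adjustment over 11593 genes, threshold 0.05). In all genes tested, 2.06% were called, 1.73% higher and 0.336% lower, so 1 called gene of 35 is near this background. None of the 35 genes was called lower. At an unadjusted p below 0.05, 4 genes were lower (Hmgcs1, Elovl6, Scd2 and Fasn) and 1 was higher (Npc2), beside 6.14% of all genes lower and 9.94% higher. The number lower among the 35 genes was 7 under median-of-ratios scaling, 9 under quantile normalization and 10 with the GC content and length trends removed, beside 950, 1248 and 1154 of all genes in place of 712, and 2 with the replicate block, beside 544. It was 9 without siNC replicate 1, 7 without siCNN3 replicate 3 and 2 without siCNN3 replicate 1, beside 902, 1158 and 408 of all genes. The median log2 fold change of the 35 genes was -0.25, compared with 0.03 over all genes tested, and 30 of them (85.7%) were below 0, compared with 46.0% of all genes. With the top transcript in place of the sum 27 were below 0 (15 of the 18 sterol enzymes and 6 of the 8 fatty acid genes), and without siCNN3 replicate 3 there were 28. Under the 3 scaling and trend alternatives 31 of the 35 were below 0, while the share of all genes below 0 was 50.3%, 56.1% and 55.7% and their median turned to -0.0019, -0.0432 and -0.0423. The pseudocount of 1 FPKM in these log2(FPKM + 1) differences makes the change of genes of low level look smaller than it is.

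**Figure D1:**
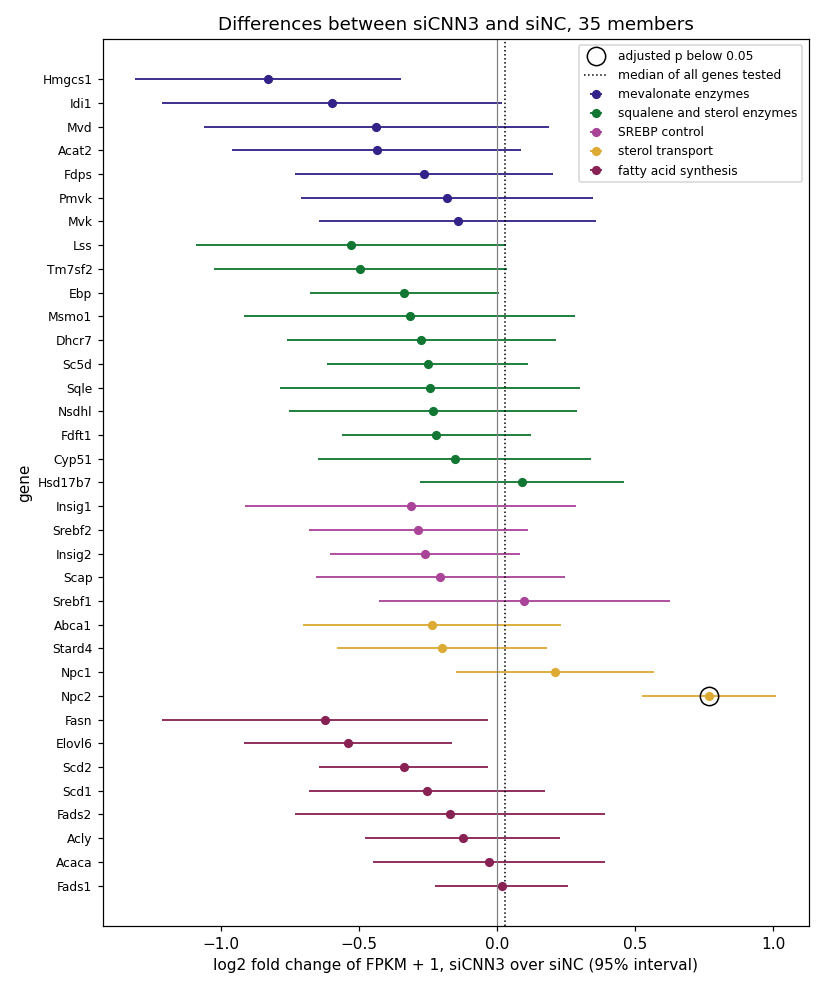
The log2 fold change of FPKM + 1 (siCNN3 over siNC, x axis) of the 35 genes (y axis) is plotted by role with its 95% interval from limma, and the dotted line marks the median of all genes tested at 0.03. Points of 30 genes lie left of 0, the intervals of Hmgcs1, Elovl6, Scd2 and Fasn end below 0, and Npc2, circled as the gene called, lies at 0.77 with an interval from 0.53 to 1.01.

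By role, most enzymes of both pathways had values below 0 and the transport genes were split. Of the 18 sterol synthesis enzymes, 17 had a log2 fold change below 0, with a median of -0.27, and their lowest adjusted p was 0.104 (limma). Of the 8 fatty acid synthesis genes, 7 were below 0, with a median of -0.21 and a lowest adjusted p of 0.158 (limma), and this count was 8 under median-of-ratios scaling or quantile normalization and 5 without siCNN3 replicate 3. Relative to the siNC mean, the mean log2(FPKM + 1) of the fatty acid genes was -0.213, 0.147 and 0.067 in siNC replicates 1, 2 and 3. It was -0.213, -0.215 and -0.344 in siCNN3, so siNC replicate 1 lay among the siCNN3 cultures. The summed FPKM of these genes was 297, 349 and 335 in siNC and 269, 278 and 288 in siCNN3, without overlap. Of the 4 transport genes, 2 were below 0 and 2 above. All siCNN3 cultures lay under all siNC cultures for 5 genes (Hmgcs1, Lss, Ebp, Scd2 and Elovl6), compared with 9.35% of all genes, and over all siNC cultures for 1 gene (Npc2), compared with 13.8% of all genes. For 3 cultures against 3, an exact two-sided permutation test of groups that do not overlap gives p = 0.1, its smallest value.

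**Figure D2:**
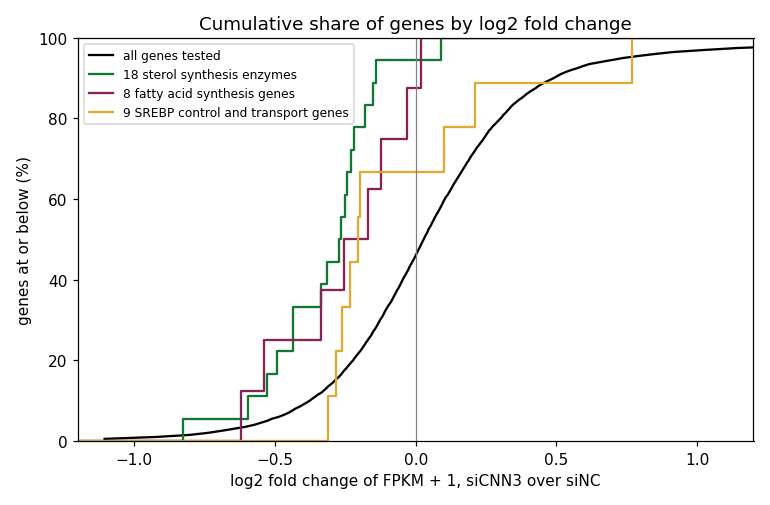
Each line gives the percentage of genes (y axis) at or below a log2 fold change of FPKM + 1 (x axis) for all genes tested, the 18 sterol synthesis enzymes, the 8 fatty acid synthesis genes and the 9 genes of SREBP control and transport. At 0 the line of all genes stands at 46.0%, that of the sterol enzymes at 94.4% and that of the fatty acid genes at 87.5%.

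The mevalonate enzymes turn acetyl-CoA into isoprenoid units. Hmgcs1, which condenses acetoacetyl-CoA and acetyl-CoA to HMG-CoA, lies on chromosome 13 (GRCm38, chr13:119690379-119708260, plus strand). It measured 31.2, 55.0 and 42.3 FPKM in siNC replicates 1, 2 and 3 and 22.5, 22.9 and 23.8 FPKM in the siCNN3 replicates, and the other values by culture are given in the same order. The 3 siCNN3 cultures lay close together and below the 3 siNC cultures, which were spread widely. The siNC mean was 42.8 ± 11.9 FPKM and the siCNN3 mean 23.1 ± 0.689 FPKM (SD, n = 3), or 53.9% of it. The log2 fold change of -0.83 had a standard error of 0.202 and an adjusted p of 0.104 (limma), so Hmgcs1 was not called. It was called when the libraries were quantile normalized (adjusted p = 0.0480) and when their trends with GC content and length were removed (adjusted p = 0.0428, both limma), and it was at -0.21 (adjusted p = 0.886, limma) when the transcript with the highest mean stood in for the sum. With each library left out in turn, the log2 fold change was between -1.03 and -0.63.

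Idi1, the isomerase that makes dimethylallyl diphosphate, measured 9.17, 18.6 and 13.8 FPKM in the siNC cultures and 10.1, 8.54 and 7.07 FPKM in the siCNN3 cultures. Mvd, the decarboxylase of mevalonate diphosphate, measured 3.95, 7.21 and 3.10 FPKM in the siNC cultures and 3.04, 3.23 and 2.92 FPKM in the siCNN3 cultures. Both were highest in siNC replicate 2. The groups overlapped for Idi1, because siNC replicate 1 lay below siCNN3 replicate 1, and the lowest siNC value of Mvd was within the siCNN3 values. Their log2 fold changes were -0.60 (95% interval -1.21 to 0.02) and -0.44 (-1.06 to 0.19), and neither passed the test (adjusted p = 0.324 and 0.465, limma). Without siNC replicate 2 they were -0.37 and -0.15. Acat2, which makes acetoacetyl-CoA, the mevalonate kinases Mvk and Pmvk, and Fdps, which makes farnesyl diphosphate, had log2 fold changes between -0.43 and -0.14 with overlapping groups. Without siNC replicate 2, Acat2 was at -0.28, Fdps at -0.09 and Mvk at -0.03, and without siNC replicate 1 they were at -0.67, -0.47 and -0.31. Pmvk was at -0.06 without siCNN3 replicate 1 or 2 and at -0.42 without siCNN3 replicate 3. All 7 mevalonate enzymes were thus below 0, with a median of -0.43 and adjusted p between 0.104 and 0.782 (limma).

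**Figure D3:**
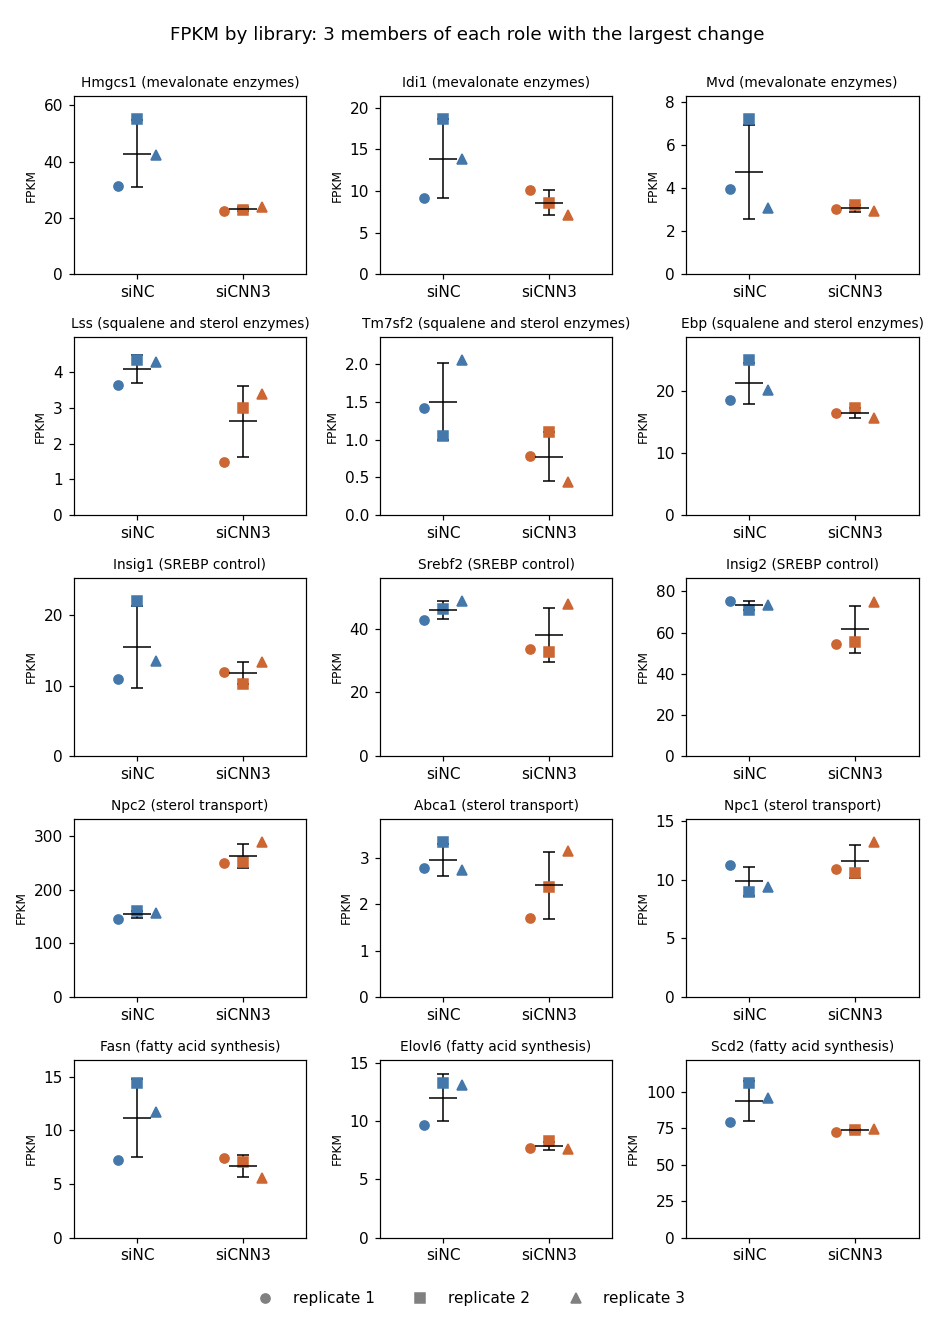
FPKM (y axis, from 0) in each library is shown by group (x axis) for the 3 genes of each role with the largest change, with symbols for replicates 1 to 3 and bars for the mean and SD. Npc2 lies between 146 and 160.0 FPKM in siNC and between 249.7 and 289 FPKM in siCNN3, and for Hmgcs1 the 3 siCNN3 values (22.5 to 23.8 FPKM) lie below all siNC values (31.2 to 55.0 FPKM).

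In the later steps, squalene is closed into lanosterol and reduced, demethylated and isomerised to cholesterol. Lss, the lanosterol synthase, measured 3.65, 4.34 and 4.29 FPKM in the siNC cultures and 1.501, 2.99 and 3.39 FPKM in the siCNN3 cultures. Ebp, a sterol isomerase, measured 18.5, 24.9 and 20.1 FPKM in the siNC cultures and 16.4, 17.3 and 15.7 FPKM in the siCNN3 cultures. The groups did not overlap for these 2 genes, with the closest libraries of Lss 3.39 and 3.65 FPKM and those of Ebp 17.3 and 18.5 FPKM. The log2 fold change was -0.53 for Lss (95% interval -1.09 to 0.03) and -0.34 for Ebp (-0.68 to 0.01), and the adjusted p was 0.335 and 0.316 (limma). Lss was at -0.28 without siCNN3 replicate 1, and Ebp at -0.22 without siNC replicate 2. Tm7sf2, a sterol reductase and the gene of lowest level among the 35, measured 1.42, 1.04 and 2.05 FPKM in the siNC cultures and 0.788, 1.10 and 0.441 FPKM in the siCNN3 cultures. Its siCNN3 mean was 51.6% of the siNC mean, but siNC replicate 2 lay below siCNN3 replicate 2 and the test was not passed (log2 fold change -0.49, adjusted p = 0.339, limma, or -0.90 with a pseudocount of 0.1). The other 7 enzymes below 0 were between -0.32 and -0.15 with overlapping groups. They are Fdft1 and Sqle, which make squalene and its epoxide, Cyp51, Msmo1 and Nsdhl, which remove methyl groups, and Sc5d and Dhcr7, which act at the end of the route. Without siNC replicate 2, Msmo1 was at -0.09, Sqle at -0.10, Nsdhl at -0.04 and Cyp51 at -0.0018, while without siNC replicate 1 Sqle was at -0.51, Nsdhl at -0.40 and Cyp51 at -0.36. Msmo1 was at -0.50 without siNC replicate 3 or siCNN3 replicate 1. Dhcr7 was at -0.14 without siNC replicate 1 and at -0.43 without siNC replicate 2, and Sc5d at -0.16 without siCNN3 replicate 1. With transcripts listed at 0 in any library removed, Dhcr7 was at -0.0855. Fdft1 was at -0.74 with the top transcript in place of the sum. Hsd17b7, a sterol ketoreductase, was the 1 of the 18 sterol enzymes above 0, at 6.23 to 8.72 FPKM in siNC and 7.40 to 8.06 FPKM in siCNN3, with a log2 fold change of 0.09 (95% interval -0.28 to 0.46) that turned to -0.0033 when the GC content and length trends were removed.

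Among the genes that control the pathway, no change was called. Insig1, itself a target of SREBP and a retention protein of SCAP, measured 10.999, 22.04 and 13.5 FPKM in the siNC cultures and 11.9, 10.2 and 13.4 FPKM in the siCNN3 cultures. Srebf2, which encodes the SREBP of the sterol genes, measured 42.8, 46.2 and 48.7 FPKM in the siNC cultures and 33.5, 32.7 and 47.8 FPKM in the siCNN3 cultures. Insig2, the second retention protein, measured 75.3, 71.1 and 73.3 FPKM in the siNC cultures and 54.7, 55.3 and 74.8 FPKM in the siCNN3 cultures. For Srebf2 and Insig2, siCNN3 replicates 1 and 2 lay below all siNC cultures and siCNN3 replicate 3 lay among them. The log2 fold changes were -0.31 for Insig1, -0.28 for Srebf2 and -0.26 for Insig2, with adjusted p of 0.588, 0.455 and 0.427 (limma). Insig1 was at -0.04 without siNC replicate 2 and at -0.51 without siNC replicate 1. Without siCNN3 replicate 3, Srebf2 was at -0.46 and Insig2 at -0.41 (adjusted p = 0.0791 and 0.0739, limma), and with the GC content and length trends removed they were at -0.17 and -0.44. Scap, the carrier of SREBP, was at -0.21 (without siNC replicate 2 at -0.07, without siNC replicate 1 at -0.36), and Srebf1, which encodes the SREBP linked to fatty acid genes, was at 0.10 with a 95% interval from -0.43 to 0.63. The ratio of Srebf2 to Srebf1 FPKM was 7.32, 4.82 and 6.41 in siNC and 3.48, 3.70 and 7.59 in siCNN3, and the ratio of Insig2 to Insig1 was 3.23 to 6.84 in siNC and 4.59 to 5.58 in siCNN3. Both ratios overlapped between the groups. Relative to the siNC mean, the mean log2(FPKM + 1) of the genes of SREBP control was -0.22, 0.22 and 0.0014 in siNC. It was -0.17, -0.27 and -0.14 in siCNN3, so siNC replicate 1 lay among the siCNN3 cultures.

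The transport genes held the 1 gene called. Npc2 measured 146, 160.0 and 156 FPKM in the siNC cultures and 249.7, 251 and 289 FPKM in the siCNN3 cultures. All 3 siCNN3 cultures were above all siNC cultures, with a gap of more FPKM than the range of either group. The siNC mean was 154 ± 7.28 FPKM and the siCNN3 mean 263 ± 22.4 FPKM (SD, n = 3). The log2 fold change of 0.77 had a standard error of 0.102 and an adjusted p of 0.0194 (limma). Npc2 was lost as a call without siNC replicate 1 or 3 (adjusted p = 0.0641 and 0.108, limma). It was also lost without siCNN3 replicate 1 or 2 (adjusted p = 0.0820 and 0.0939, limma). The same held with the replicate block (adjusted p = 0.0807, limma) and with the spread of each gene on its own (0.101). With a library left out, Npc2 had a log2 fold change between 0.70 and 0.81. It was at 0.63 under quantile normalization, where it was still called (adjusted p = 0.0237, limma). It was the most abundant of the 35 genes in FPKM, with 1 listed transcript. Npc1, the membrane protein that takes cholesterol from NPC2 and exports it from the lysosome, measured 11.2, 8.93 and 9.39 FPKM in the siNC cultures and 10.9, 10.6 and 13.2 FPKM in the siCNN3 cultures. Its groups overlapped, with a log2 fold change of 0.21 (95% interval -0.15 to 0.57), or 0.12 without siCNN3 replicate 3. The ratio of Npc2 to Npc1 FPKM was 13.0, 17.9 and 16.6 in siNC and 23.0, 23.7 and 21.9 in siCNN3. The groups did not overlap in it, but they did not overlap in Npc2 alone either, so the ratio is no separate result. Abca1, which exports cholesterol from the cell, measured 2.79, 3.34 and 2.74 FPKM in the siNC cultures and 1.71, 2.36 and 3.15 FPKM in the siCNN3 cultures. Stard4, a cytosolic sterol carrier, was at -0.20 (-0.11 without siCNN3 replicate 2), Abca1 at -0.23, and neither passed the test (adjusted p = 0.584 and 0.603, limma). Abca1 was at -0.08 without siCNN3 replicate 1 and at -0.39 without siCNN3 replicate 3.

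The fatty acid genes make, elongate and desaturate fatty acids. Fasn, the fatty acid synthase, measured 7.28, 14.4 and 11.7 FPKM in the siNC cultures and 7.47, 7.03 and 5.54 FPKM in the siCNN3 cultures. Elovl6, which elongates palmitate, measured 9.65, 13.3 and 13.1 FPKM in the siNC cultures and 7.72, 8.29 and 7.61 FPKM in the siCNN3 cultures. Scd2, a stearoyl-CoA desaturase, measured 79.2, 106 and 95.9 FPKM in the siNC cultures and 72.4, 73.6 and 74.4 FPKM in the siCNN3 cultures. Each siCNN3 culture was below every siNC culture for Elovl6 and Scd2, while for Fasn siNC replicate 1 lay below siCNN3 replicate 1. The log2 fold changes were -0.62 for Fasn, -0.54 for Elovl6 and -0.34 for Scd2, with adjusted p of 0.288, 0.158 and 0.268 (limma), so none was called. Fasn was at -0.23 when the transcript with the highest mean stood in for the sum, or when transcripts listed at 0 in any library were removed (adjusted p = 0.827 and 0.807, limma). Scd1, the second desaturase of this kind, measured 98.3, 89.6 and 91.8 FPKM in the siNC cultures and 62.2, 75.2 and 101 FPKM in the siCNN3 cultures, with a log2 fold change of -0.25 (-0.09 without siCNN3 replicate 1, but -0.44 leaving out siCNN3 replicate 3), and its ratio to Scd2 overlapped between the groups (0.846 to 1.24 in siNC and 0.860 to 1.36 in siCNN3). Acly, which makes cytosolic acetyl-CoA from citrate, Acaca, which makes malonyl-CoA, and Fads2, a fatty acid desaturase, had log2 fold changes of -0.12, -0.03 and -0.17. Without siCNN3 replicate 3 these were -0.03, 0.11 and 0.0136, and without siNC replicate 1 they were -0.24, -0.11 and -0.37. Fads1, another fatty acid desaturase, was at 43.6 to 45.0 FPKM in siNC and 42.4 to 46.9 FPKM in siCNN3, with a log2 fold change of 0.02 and a 95% interval from -0.22 to 0.26.

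The sterol enzymes varied more among the siNC cultures than among the siCNN3 cultures. Their median SD on the log2(FPKM + 1) scale was 0.337 in siNC and 0.173 in siCNN3, compared with 0.210 and 0.209 over all genes tested, and the SD was larger in siNC for 14 of the 18 enzymes (77.8%), compared with 50.9% of all genes. Their summed FPKM was 269.7, 407 and 351 in siNC and 276, 261 and 254 in siCNN3, so siNC replicate 1 lay among the siCNN3 cultures. Of the 35 genes, 23 (65.7%) were highest within siNC in replicate 2, compared with 45.1% of all genes, and 24 (68.6%) were lowest in replicate 1, compared with 58.8%. Replicate 2 was also the siNC culture with the highest summed interferon response, myotube and erythroid markers. Without siNC replicate 2 the median of the 18 enzymes was -0.20, and without siNC replicate 1 it was -0.41. The part of these markers in the spread of the sterol enzymes was not tested.

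**Figure D4:**
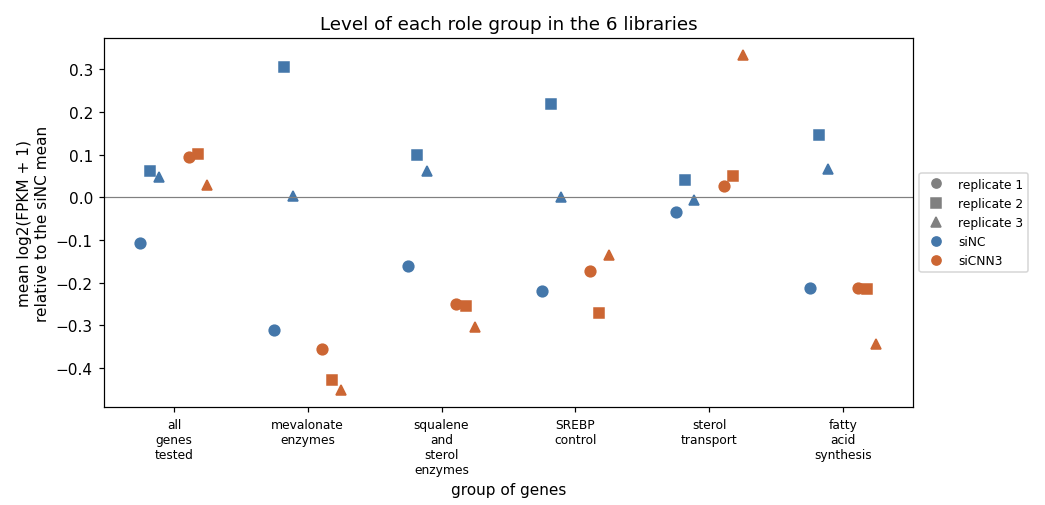
The mean log2(FPKM + 1) of each group of genes relative to its siNC mean (y axis) is plotted for the 6 libraries by group of genes (x axis), with blue symbols for siNC and orange symbols for siCNN3. The mevalonate enzymes stand at -0.31, 0.31 and 0.0040 in siNC and at -0.36, -0.43 and -0.45 in siCNN3, and all genes tested between -0.11 and 0.10.

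The 35 genes have 72 listed transcripts, and 19 genes have more than 1. Hmgcs1-202 measured 10.00, 39.6 and 35.3 FPKM in the siNC cultures and 21.3, 20.01 and 21.4 FPKM in the siCNN3 cultures, so its groups overlapped. Hmgcs1-201 measured 20.3, 14.4 and 6.28 FPKM in the siNC cultures and 0.433, 1.78 and 0.955 FPKM in the siCNN3 cultures. Every siCNN3 culture was below every siNC culture for Hmgcs1-201, and the log2 fold change was -2.75 (adjusted p = 0.0874 over 21658 transcripts, limma) compared with -0.21 for Hmgcs1-202. In siNC replicate 1 Hmgcs1-201 exceeded Hmgcs1-202, while in the other siNC cultures the order was the opposite. Of the 63 transcripts of these genes that were tested 1 by 1, only Npc2-201 was called (adjusted p = 0.0416, limma), compared with 0.540% of all transcripts. The groups did not overlap, in either direction, for 11 of these 63 transcripts, compared with 17.9% of all transcripts tested. Some shares moved between transcripts from library to library. Fasn-205 was at 7.09 FPKM in siNC replicate 3 and was listed at 0 in the other 5 libraries, and Acly-201 was at 13.1 FPKM in siNC replicate 1 and at most 0.141 FPKM in the others. The sum over transcripts of Acly varied less, from 29.02 to 39.6 FPKM. A share assigned to 1 transcript of a gene is an estimate by the authors' software, and a value of 0 can be a failed estimate.

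**Figure D5:**
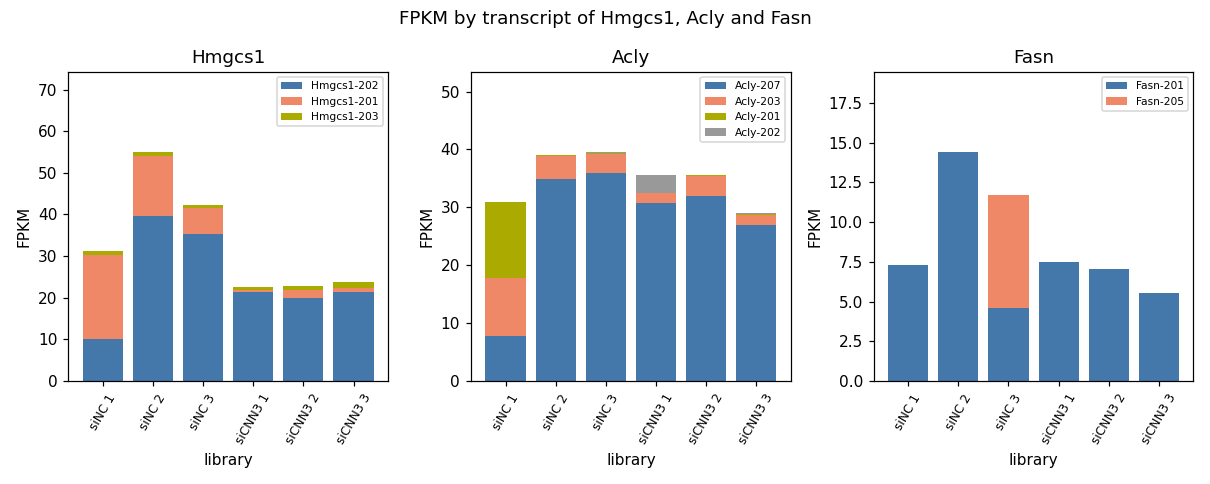
FPKM (y axis, from 0) of Hmgcs1, Acly and Fasn is stacked by transcript in each library (x axis). Hmgcs1-201 makes up 6.28 to 20.3 FPKM in siNC and 0.433 to 1.78 FPKM in siCNN3, and Fasn-205 appears in siNC replicate 3 at 7.09 FPKM and in no other library.

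The start regions of these genes were read to show which letters they share. RefSeq promoters of GRCm38.p6 (250 bases before to 50 after the start) were matched for 27 of the 35 genes. The other 8 (Stard4, Fdft1, Sqle, Scd1, Fads1, Fdps, Npc1 and Scd2) had no promoter entry. The SREBP site was searched only as the letters TCACNCCAC, and other forms of it were not searched. These letters were found in 1 of the 27 (Hmgcs1), compared with 1.37% of the 9074 tested genes with a promoter. The box CCAAT, known as the site of the factor NF-Y, was found in 21 (77.8%, compared with 43.9%), the Sp1 box GGGCGG in 23 (85.2%, compared with 69.9%) and the E-box CACGTG in 6 (22.2%, compared with 11.8%). The interferon response element, which is GAAA, any pair of bases and GAAA again, was found in 1 (Ebp), compared with 3.79% of tested genes. Both strands were searched, matches of different motifs could overlap, and a match is a description and not a site. The bases before the start are shown as examples for 5 of the 6 genes whose groups did not overlap (of 35, beside 23.1% of all genes), those with a promoter, and 4 of these 5 were not called. The sequences run from 5′ to 3′ on the strand of the gene, stop before the RefSeq start or before the GENCODE start where that comes first, and capitals mark matches to the 5 motifs on either strand.
Hmgcs1 (chr13:119690101-119690350, plus strand): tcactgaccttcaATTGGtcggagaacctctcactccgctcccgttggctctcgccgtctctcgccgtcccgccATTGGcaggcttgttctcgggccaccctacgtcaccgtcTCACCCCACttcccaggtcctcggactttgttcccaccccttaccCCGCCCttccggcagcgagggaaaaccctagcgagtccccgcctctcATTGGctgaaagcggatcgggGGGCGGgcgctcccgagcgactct
Lss (chr10:76531355-76531587, plus strand): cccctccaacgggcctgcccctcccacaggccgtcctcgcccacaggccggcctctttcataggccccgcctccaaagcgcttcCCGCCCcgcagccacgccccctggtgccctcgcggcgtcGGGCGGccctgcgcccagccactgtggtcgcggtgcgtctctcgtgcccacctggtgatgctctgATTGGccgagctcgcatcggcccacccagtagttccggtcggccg
Ebp (chrX:8193513-8193762, minus strand): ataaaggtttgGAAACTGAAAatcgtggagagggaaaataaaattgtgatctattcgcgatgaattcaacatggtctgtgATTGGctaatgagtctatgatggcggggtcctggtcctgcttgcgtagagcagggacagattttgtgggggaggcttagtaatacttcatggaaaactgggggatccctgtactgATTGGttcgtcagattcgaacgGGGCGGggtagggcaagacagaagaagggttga
Elovl6 (chr3:129532136-129532354, plus strand): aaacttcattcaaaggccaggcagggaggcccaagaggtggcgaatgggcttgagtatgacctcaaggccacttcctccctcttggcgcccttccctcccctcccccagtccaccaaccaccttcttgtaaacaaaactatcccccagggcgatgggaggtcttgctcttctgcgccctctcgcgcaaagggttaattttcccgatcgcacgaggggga
Npc2 (chr12:84773153-84773362, minus strand): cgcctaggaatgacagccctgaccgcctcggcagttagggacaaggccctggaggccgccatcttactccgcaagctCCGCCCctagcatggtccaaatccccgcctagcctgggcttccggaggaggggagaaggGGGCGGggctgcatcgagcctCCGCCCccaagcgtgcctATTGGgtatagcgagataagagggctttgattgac
The Hmgcs1 window holds the SREBP match from position -137 to -129, counted back from the RefSeq start, with CCAAT matches on the opposite strand both before and after it. The windows of Lss, Ebp and Npc2 hold matches to CCAAT and the Sp1 box, as Hmgcs1 does, and that of Elovl6 holds none of the 5 motifs, which says only that these letters are not in it. The promoters of Npc2, the gene that rose, and of Hmgcs1, Lss and Ebp, whose values were lower, share these 2 motifs.

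Other genes of the same pathways were examined in 4 lists of 44 genes, of which 39 were tested. None was called higher or lower by limma after adjustment, and before adjustment 2 were higher and 7 lower at p below 0.05, beside 9.94% and 6.14% of all genes. Of the 39 genes, 22 (56.4%) were below 0, compared with 46.0% of all genes, with a median log2 fold change of -0.06. In the list of SREBP proteases and sterol sensors (8 tested, median 0.11), Rnf139, a ubiquitin ligase of the endoplasmic reticulum, was at 0.33 and Osbp, an oxysterol-binding protein, at -0.31. Rnf139 measured 14.5, 17.7 and 17.4 FPKM in the siNC cultures and 23.4, 22.01 and 17.7 FPKM in the siCNN3 cultures. Osbp measured 18.6, 21.6 and 19.9 FPKM in the siNC cultures and 15.2, 16.0 and 16.6 FPKM in the siCNN3 cultures. The groups did not overlap for either gene, and siCNN3 replicate 3 of Rnf139 stood next to siNC replicate 2. In the list of the isoprenoid branch and sterol reductases (9 tested, median 0.20), Coq2, an enzyme of ubiquinone synthesis, was at 0.50 and Ggps1, which makes geranylgeranyl diphosphate, at 0.49. Coq2 measured 9.49, 11.4 and 18.4 FPKM in the siNC cultures and 18.8, 18.9 and 17.0 FPKM in the siCNN3 cultures. Ggps1 measured 5.01, 7.51 and 6.25 FPKM in the siNC cultures and 9.32, 9.19 and 8.86 FPKM in the siCNN3 cultures. The groups overlapped for Coq2 and not for Ggps1.

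In the list of oxysterols and cholesterol esters (5 tested, median -0.22), Hsd3b7, an enzyme of bile acid synthesis, measured 6.97, 5.50 and 3.21 FPKM in the siNC cultures and 0.863, 0.671 and 2.41 FPKM in the siCNN3 cultures. Ch25h, which makes 25-hydroxycholesterol, a known inhibitor of SREBP processing and a target of interferon, measured 1.24, 1.47 and 1.99 FPKM in the siNC cultures and 7.40, 4.91 and 2.01 FPKM in the siCNN3 cultures. Neither group pair overlapped, but for both genes siCNN3 replicate 3 was the culture nearest to siNC, and for Ch25h its 2.01 FPKM stood next to 1.99 FPKM in siNC replicate 3. Their log2 fold changes were -1.45 and 1.06 (adjusted p = 0.0968 and 0.226, limma), and both were called without siCNN3 replicate 3, when 602 of 11611 genes were called. In the list of fatty acid supply, elongation and use (17 tested, median -0.20), Acss2, the cytosolic acetyl-CoA synthetase, was at -0.51 and Cpt1a, which admits fatty acids to mitochondria, at -0.48 (adjusted p = 0.529 and 0.101, limma). Acss2 measured 6.34, 3.31 and 5.88 FPKM in the siNC cultures and 1.96, 2.82 and 5.73 FPKM in the siCNN3 cultures, with overlap. Cpt1a measured 59.1, 69.2 and 71.9 FPKM in the siNC cultures and 46.4, 49.4 and 46.8 FPKM in the siCNN3 cultures, without overlap, and was called under median-of-ratios scaling, quantile normalization and removal of the GC content and length trends.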

How the data were processed

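RNA of 3 siNC and 3 siCNN3 C2C12 cultures was sequenced, and the authors deposited FPKM per Ensembl transcript (24023 transcripts, 6 libraries). The submitters' processing notes name Bowtie 0.12.2 and the builds mm8 and mm10. Which program estimated FPKM, on which annotation and from how many reads, is not given in the sources used here, so no counting error can be given. Identifiers without their version were matched to GENCODE transcripts of GRCm38 (23949 matched, 74 with at most 0.220% of a library's FPKM did not), and FPKM were summed by gene symbol for 11835 genes.

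The 11593 genes averaging 0.5 FPKM or more entered a fit of log2(FPKM + 1) by limma 3.58.1 in R 4.3.3 (mean-variance trend, no covariate, two-sided, Benjamini-Hochberg adjustment, threshold 0.05), and all 35 genes passed this filter. The fit was tested on simulated data. Values in each library are given for genes called and for the 3 of each role, or the 2 of each related list, with the largest absolute log2 fold change. Scd1, the transcripts and the ratios were added after their values were seen. The 35 genes and all lists were chosen with earlier results of these data known, and some genes of the pathways are not reported here. The alternatives were a pseudocount of 0.1, no filter or one at 5 FPKM, other scalings, the replicate number as a block, other estimates of the spread, the top transcript, removal of transcripts listed at 0, removal of trends over GC content and over length (splines of 4 degrees of freedom), and each library left out. Testing each transcript on its own was added after the data were seen. Figures were made in Python 3.11.15 with matplotlib 3.10.9.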

Additional observations from a re-analysis of the deposited data

How the results depend on the processing

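The medians of the 18 sterol enzymes and the 8 fatty acid genes kept their sign under each alternative run, from -0.41 to -0.20 and from -0.32 to -0.16. Of the 35 genes, 2 were called under quantile normalization and 2 with the GC content and length trends removed (Npc2 and Hmgcs1), 0 with the replicate block, 0 with each gene's own spread (1 higher and 2 lower at an unadjusted p below 0.05), and 0 to 1 with a library left out. Npc2 had an adjusted p of 0.0807 from limma with the replicate block and 0.101 with its own spread. Correlations of same-number deviations were -0.28, 0.31 and -0.02, and those of unlike numbers ran from -0.45 to 0.44. Deviations from a mean of 3 libraries sum to 0, so these correlations cannot decide whether the replicate numbers pair the samples. All genes called numbered 239, compared with 282 under median-of-ratios scaling, 291 under quantile normalization, 293 with trend removal, 68 with the replicate block, 0 with own spreads (1084 higher and 716 lower at an unadjusted p below 0.05), 122 with the top transcript, 152 with transcripts at 0 removed, and 20 (without siNC replicate 3) to 602 (without siCNN3 replicate 3) with a library left out. The share called higher was 83.7%, and 77.7%, 68.4% and 69.3% under median-of-ratios scaling, quantile normalization and trend removal. Of 39 related genes, 1 was called under each of these 3 and 0 to 2 with a library left out. Groups of the 35 genes not overlapping numbered 6, and 10, 12 and 11 under these 3 (all genes 23.1%, and 25.0%, 26.0% and 24.7%), and 8 to 19 with a library left out, where fewer libraries make separation more frequent (19 without siNC replicate 1, beside 36.5% of all genes). Signs turned for 8 of the 35 genes, none of them called, and the cause was not tested. With the top transcript Mvk was at 0.13, Dhcr7 at 0.19 and Acly at 0.44. With transcripts at 0 removed Srebf1 was at -0.0136. With trend removal Hsd17b7 was at -0.0033, Acaca at 0.0478 and Fads1 at -0.0067, and Fads1 was at -0.0185 and -0.0760 under median-of-ratios scaling and quantile normalization. With a library left out Hsd17b7 ranged from -0.0050 to 0.21, Srebf1 from -0.0598 to 0.26, Acaca from -0.14 to 0.11, Fads1 from -0.0120 to 0.0587 and Fads2 from -0.37 to 0.0136. The depth is unknown, and 3 cultures a group limit what can be called.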
